A study of Mus musculus with 15 samples.

Results

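Genes of the mouse hippocampus were followed library by library through learning and recall of a fear memory. These 6 genes were Vwc2l, Dsc3, Rxfp1, Abca4, Tbx3 and Lcmt2, out of 37310 genes counted and 18008 tested, and all 6 passed the filter on low counts. They were chosen by measured values of these same libraries, as genes lower after training or different between training and retrieval, so the fold changes of the 6 genes are given as a description and without a test. All groups were hippocampi of C57BL/6J wild-type male mice 2 months old, housed singly, handled on 3 days and dissected at a matched time of day. In the FC group, training consisted of a 2 s shock to the feet at 1.5 mA that ended 2.5 min after placement in a new chamber, and tissue was taken 30 min later. The RT group had this training too, went back to the chamber for 5 min at 24 h to retrieve the memory, and was dissected 30 min afterwards. The CC group, the controls, was handled but never trained. Each group had 5 libraries, numbered 3, 5, 6, 7 and 8, and by the methods of the study a library holds RNA of both hippocampi of 1 mouse, with mice of a group dissected on different days. The design text of the series gives 9 animals per group instead.

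Contextual fear conditioning is a hippocampus-dependent task in which a single pairing of a place with a shock leaves a lasting memory, and its storage needs a wave of transcription shortly after training. Most genes of that wave are induced. The 6 genes have unrelated functions. Vwc2l encodes a secreted protein with von Willebrand factor C domains that binds and restrains bone morphogenetic proteins (BMPs). Dsc3 encodes desmocollin 3, a cadherin of desmosomes, the junctions that hold epithelial cells together. Rxfp1 encodes the G protein-coupled receptor for the peptide hormone relaxin. Abca4 encodes an ATP-driven lipid flippase that clears retinoid compounds from photoreceptor membranes and is mutated in Stargardt disease in humans. Tbx3 encodes a T-box transcription factor, mainly a repressor, of limb, heart and mammary development. Lcmt2 is the mouse counterpart of a yeast methyltransferase that completes wybutosine, a modified base of phenylalanine tRNA.

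Promoter windows of 3 of the 6 genes, from RefSeq (build GRCm38.p6), were examined, and those of the other genes were not. The 3 genes were not picked by their pattern. As described below, Vwc2l was lower after training, Abca4 higher after training, and Lcmt2 lower after both sessions. The 250 bases before the start are printed in the direction of transcription, and capitals mark the matches found among 6 motifs searched on both strands. The motifs were the cAMP response element TGACGTCA and its core TGACG (which lies within the full element), the AP-1 site TGACTCA, the E-box CACGTG, the TATA box TATAAA and the SP1 box GGGCGG. Positions are chr1:70725465-70725714 (plus strand) for Vwc2l, chr3:122044210-122044459 (plus strand) for Abca4 and chr2:121140699-121140948 (minus strand) for Lcmt2.
Vwc2l: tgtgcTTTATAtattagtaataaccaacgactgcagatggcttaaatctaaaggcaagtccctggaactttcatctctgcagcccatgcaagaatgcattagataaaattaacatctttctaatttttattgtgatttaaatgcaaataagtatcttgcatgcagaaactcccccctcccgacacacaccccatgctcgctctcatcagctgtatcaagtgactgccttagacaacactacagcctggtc
Abca4: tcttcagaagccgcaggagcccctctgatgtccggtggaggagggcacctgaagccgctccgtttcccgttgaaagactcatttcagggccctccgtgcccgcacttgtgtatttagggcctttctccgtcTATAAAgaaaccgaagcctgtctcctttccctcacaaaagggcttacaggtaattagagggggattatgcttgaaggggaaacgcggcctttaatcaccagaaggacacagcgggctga
Lcmt2: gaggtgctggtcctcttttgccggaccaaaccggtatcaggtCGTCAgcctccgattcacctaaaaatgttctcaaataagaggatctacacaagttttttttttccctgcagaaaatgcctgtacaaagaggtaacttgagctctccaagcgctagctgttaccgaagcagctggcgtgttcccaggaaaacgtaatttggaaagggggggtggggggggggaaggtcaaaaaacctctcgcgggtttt
The window of Vwc2l held the TATA letters on the reverse strand, beginning 245 bases before the start, and that of Abca4 held them on the forward strand, beginning 119 bases before it. These letters occur in 12.4% of 32851 promoter windows of this length. The window of Lcmt2 held the core TGACG on the reverse strand, beginning 208 bases before the start, as 17.8% of windows do. None of the 3 windows held the full cAMP response element, the AP-1 site, the E-box or the SP1 box, which occur in 1.55%, 4.46%, 6.02% and 32.7% of all windows. The share of G and C bases was 40.8% for Vwc2l, 54.4% for Abca4 and 49.6% for Lcmt2.

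In the mm9 build used by the count file, Vwc2l lies at chr1:70772289-70931971 on the plus strand, Dsc3 at chr18:20119431-20160598 on the minus strand, and Rxfp1 at chr3:79448638-79541716 on the minus strand. Abca4 lies at chr3:121747361-121882979 and Tbx3 at chr5:120120678-120134733, both on the plus strand, and Lcmt2 at chr2:120954043-120966434 on the minus strand. Reads were counted over the exons of these protein-coding genes. The exons of Vwc2l, Dsc3 and Rxfp1 overlapped no other annotated exon. Those of Lcmt2 were overlapped over 239 bases (6.46% of their length) by Adal on the other strand, those of Tbx3 over 115 bases (2.14%) by Gm2301, and those of Abca4 over 16 bases by Gm16078. The library kit did not mark strand, so reads falling in these short stretches cannot be assigned to one gene.

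The libraries held 35731428 to 62555543 gene-assigned reads, and libraries of the same group differed from each other by more than sampling noise. Markers of CA1 (7 of 7), CA3 (7 of 7) and the dentate gyrus (8 of 8) were detected in every group. The early genes Fos and Arc, which neuronal activity induces, averaged 1338 ± 212 and 11932 ± 1681 upper-quartile (UQ) normalized counts in FC, 1079 ± 110 and 11191 ± 1002 in RT, and 265 ± 53.4 and 4310 ± 711 in CC (SD, n = 5 each), with no overlap between trained and control libraries. Libraries FC3 and RT3 stood apart after UQ scaling, with an interquartile range of relative log expression of 0.828 and 0.436 against at most 0.117 in the others. Library CC8 stood apart from the other controls in several of the 6 genes and in subiculum markers, as given below. Both of these scales are therefore used, UQ and RUVs. UQ counts are reads divided by a library's scaling factor. RUVs counts are UQ counts from which 5 factors were taken out. The weight of each gene in a factor came from differences between libraries of one group, over all tested genes. The value of each factor in a library came from the log counts of the study's negative control genes, so factors can also differ between groups. The spread within groups is narrowed by construction. Values are read against the background of all tested genes. At a false discovery rate (FDR) of 0.01 in the edgeR likelihood ratio test with the RUVs factors, 1.32% of genes were higher and 0.922% lower in FC than in CC, 0.866% were higher and 0.144% lower in RT than in CC, and 0.0777% were higher and 0.0444% lower in FC than in RT. Each pair of these comparisons shares the libraries of 1 group.

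On a scale of UQ counts per kilobase of exon, which allows levels of different genes to be compared, all 6 genes were expressed below the median tested gene in CC. Lcmt2 was the most abundant, with 106 ± 6.47 in FC, 106 ± 12.8 in RT and 130 ± 8.65 in CC (SD, n = 5 each), and 38.5% of tested genes lay below its CC level. Rxfp1 followed with 52.2 ± 25.6 in FC, 70.1 ± 29.8 in RT and 86.1 ± 33.5 in CC, and then Vwc2l with 39.8 ± 12.3 in FC, 55.2 ± 14.4 in RT and 64.5 ± 23.9 in CC. Tbx3 had 24.8 ± 3.39 in FC, 25.2 ± 3.90 in RT and 33.1 ± 5.52 in CC. The 2 least abundant genes in CC were Dsc3, with 15.4 ± 5.12 in FC, 22.2 ± 7.10 in RT and 27.1 ± 12.6 in CC, and Abca4, with 21.9 ± 13.3 in FC, 12.0 ± 2.78 in RT and 10.2 ± 1.34 in CC. Only 6.67% of tested genes lay below Abca4 in CC. Lcmt2 (120 to 144 across CC libraries) and Rxfp1 (32.1 to 118) did not overlap. Each further pair of neighbours in the CC order overlapped, Vwc2l with Tbx3 and Dsc3 with Abca4 through library CC8 alone. In FC the order of the last 2 genes was exchanged, with Abca4 above Dsc3.

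**Figure D1:**
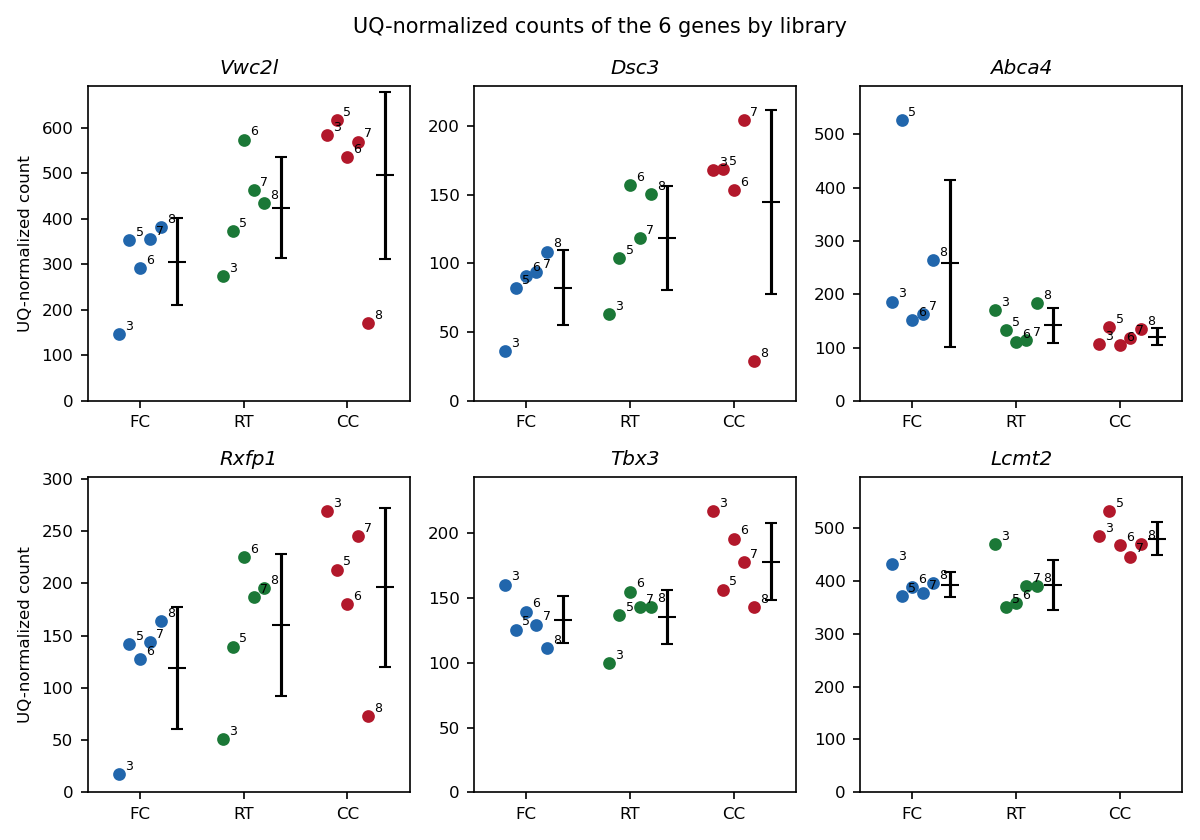
UQ-normalized counts (linear axis from 0) of the 6 genes in each library of FC, RT and CC. Points are libraries with their number, and bars are the group mean ± SD (n = 5). Vwc2l, Dsc3 and Rxfp1 share their low libraries (FC3, RT3 and CC8), Abca4 is highest in FC5, and Lcmt2 is lower in all 5 FC libraries than in any CC library.

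Vwc2l, Dsc3 and Rxfp1 had the same profile, with lower values in FC than in both other groups. Vwc2l, the secreted BMP antagonist, had 147, 353, 293, 355 and 383 UQ counts in FC3, FC5, FC6, FC7 and FC8, against 585, 618, 536, 570 and 171 in CC3, CC5, CC6, CC7 and CC8. In RT the counts were 275, 374, 574, 464 and 435 in the same order of numbers. Every FC library lay below 4 of the 5 CC libraries, and only CC8 made the groups overlap. The fitted log2 fold change with the RUVs factors was -0.46 (SE 0.0894) for FC against CC, 0.01 (SE 0.0863) for RT against CC and -0.47 (SE 0.0877) for FC against RT. Leaving out CC8 made the FC against CC value -0.81 and the RT against CC value -0.34, and the FC against RT value stayed at -0.47. With UQ factors alone and all libraries the values were -0.70, -0.23 and -0.47. The RT against CC value of Vwc2l thus depended both on library CC8 and on the scaling.

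Dsc3, the desmosomal cadherin, had few reads, between 26 and 234 a library. Its UQ counts were 36.5, 82.1, 91.1, 93.9 and 109 in FC3, FC5, FC6, FC7 and FC8, against 168, 168, 153, 204 and 29.3 in the CC libraries of the same numbers. In RT they were 63, 104, 157, 118 and 150. As with Vwc2l, the FC libraries lay below every control except CC8, which was the lowest of all 15 libraries. The fitted log2 fold change was -0.48 (SE 0.123) for FC against CC, 0.04 (SE 0.115) for RT against CC and -0.52 (SE 0.117) for FC against RT. Without CC8 these were -0.93, -0.42 and -0.50, and with UQ factors alone and all libraries they were -0.81, -0.29 and -0.52.

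Rxfp1, the relaxin receptor, had 17.2, 142, 128, 144 and 164 UQ counts in FC3, FC5, FC6, FC7 and FC8, against 269, 213, 180, 245 and 73.1 in the CC libraries of the same numbers. In RT it had 51.3, 139, 225, 187 and 196. Both libraries numbered 3 of the trained groups were the lowest of their group, with 17 reads in FC3 and 57 in RT3, and the other 4 FC libraries spanned a narrow range below 4 of the 5 controls. The fitted log2 fold change was -0.49 (SE 0.106) for FC against CC, -0.02 (SE 0.102) for RT against CC and -0.47 (SE 0.106) for FC against RT. Without FC3 and RT3 it was -0.43, 0.02 and -0.45, and without CC8 it was -0.80, -0.32 and -0.48. Scaled by UQ factors alone, the FC against CC value was -0.72 with all libraries and -0.44 without FC3 and RT3.

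On the RUVs scale the 5 FC libraries of these 3 genes lay below all 5 CC libraries. Vwc2l averaged 307 ± 17.9 in FC, 423 ± 54.2 in RT and 422 ± 25.5 in CC (SD, n = 5 each), Dsc3 81.4 ± 3.82, 118 ± 12.3 and 112 ± 19.9, and Rxfp1 108 ± 6.41, 150 ± 24.0 and 151 ± 9.69. Library CC8 then lay among the other controls, at 433 for Vwc2l, 109 for Dsc3 and 154 for Rxfp1. Tbx3 and Lcmt2 were also lower in every FC library than in any CC library on this scale, and Abca4 was higher in every FC library. Such a separation was not rare there, since 7.11% of all tested genes were lower and 4.39% higher in every FC library than in every CC library. On the UQ scale the shares were 0.400% and 0.561%, and of the 6 genes Lcmt2 was lower and Abca4 higher in every FC library.

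**Figure D2:**
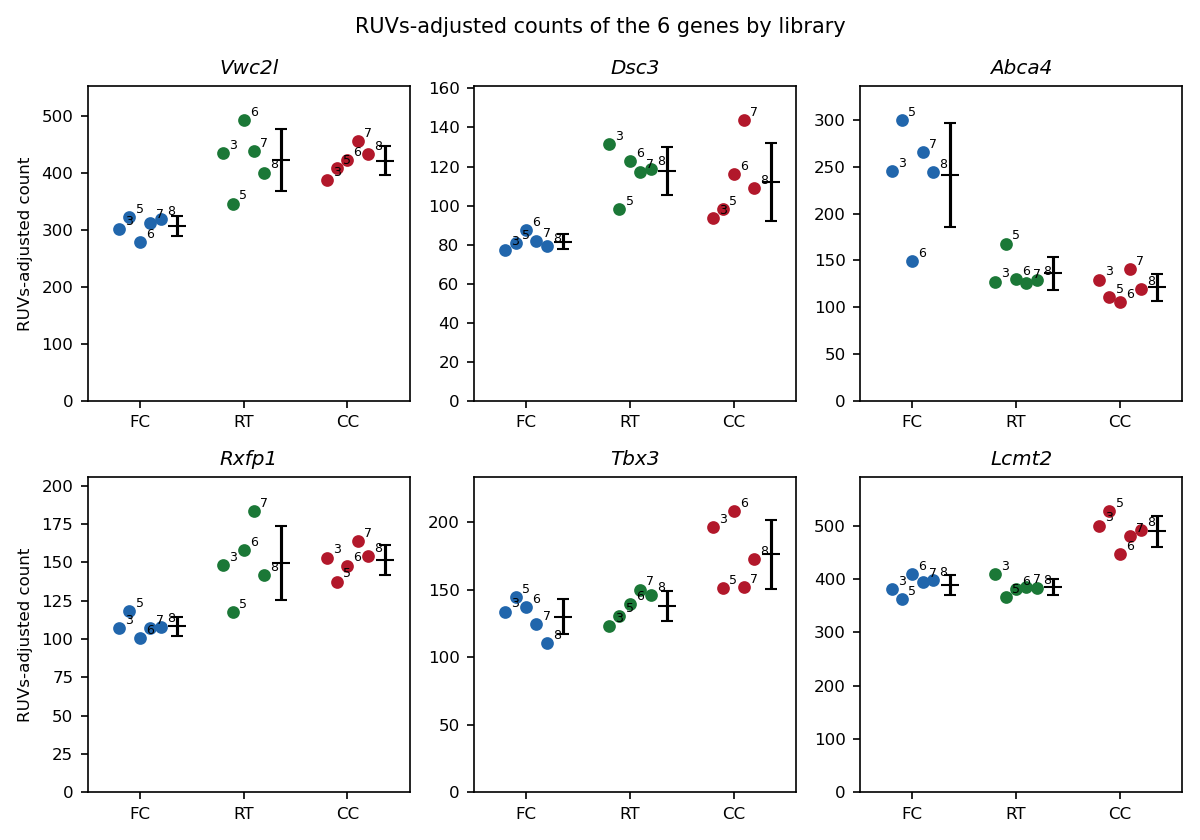
RUVs-adjusted counts (linear axis from 0, factors centred over all 15 libraries so that each gene keeps its level) of the 6 genes in each library of FC, RT and CC, with library numbers and group means ± SD (n = 5). In Vwc2l, Dsc3 and Rxfp1 the FC libraries sit below the CC libraries and the RT libraries sit around them, in Tbx3 and Lcmt2 both FC and RT sit below CC, and in Abca4 FC sits above.

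The 3 genes varied together from library to library. Over the 13 libraries without FC3 and RT3, Pearson's r of the log2 UQ counts was 0.960 for Vwc2l with Dsc3 (Spearman's rho 0.955), 0.963 for Vwc2l with Rxfp1 (rho 0.923) and 0.958 for Dsc3 with Rxfp1 (rho 0.938). Leaving out the 2 libraries farthest from the median of the first gene, of which CC8 was always one, the r values were 0.915, 0.897 and 0.903 over 11 libraries. Over all 15 libraries r was 0.969, 0.903 and 0.863. These are descriptions over libraries that differ in group, so part of each value is the shared difference between groups. With the 3 genes, r was 0.478 to 0.536 for Tbx3 and 0.110 to 0.203 for Lcmt2 over 13 libraries. These lower values rested partly on CC8, since over 12 libraries without it r was 0.715 to 0.745 for Tbx3 and 0.591 to 0.665 for Lcmt2.

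Markers of the subiculum, the output region next to CA1, moved with these 3 genes. The list held Fn1, Nts, Ly6g6e and Slc17a6, all 4 were counted in every group, and none passed the threshold in any comparison. Their summed UQ count was 3510 to 4440 in FC, 3799 to 5295 in RT and 3120 to 5604 in CC, where CC8 was the library at 3120 and the other 4 controls were at 4957 or more. The mean log2 deviation of the 4 markers ran from -0.309 to 0.0576 in FC, from -0.111 to 0.333 in RT, and from -0.829 in CC8 to 0.308 in CC. Over 13 libraries this score had r = 0.990 (rho 0.973) with Vwc2l, 0.948 (rho 0.927) with Dsc3 and 0.962 (rho 0.929) with Rxfp1. Without CC8 and FC6, the 2 libraries farthest from the median score, r was 0.969, 0.868 and 0.893 over 11 libraries. With FC3 and RT3 included, r was 0.713, 0.739 and 0.371 over 15. The likeness was not particular to the subiculum. The neocortex score moved with the 3 genes as well (r = 0.971, 0.950 and 0.939 over 13 libraries, and 0.919, 0.933 and 0.722 over 15). So did the CA1 score (0.834, 0.768 and 0.782 over 13 libraries, and 0.883, 0.811 and 0.933 over 15). The dentate gyrus score went the other way over 13 libraries (-0.758, -0.707 and -0.675) but not over 15 (0.301, 0.243 and 0.655). Over the 11 libraries without CC8 and FC6, r was 0.906, 0.897 and 0.835 for neocortex. There it was 0.396, 0.179 and 0.296 for CA1, and -0.406, -0.453 and -0.247 for the dentate gyrus. The CA1 and dentate gyrus values thus rested in part on these 2 libraries. The part of the marker levels in the differences between groups was not tested. In tissue RNA, fewer cells of a type and less RNA per cell cannot be told apart.

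**Figure D3:**
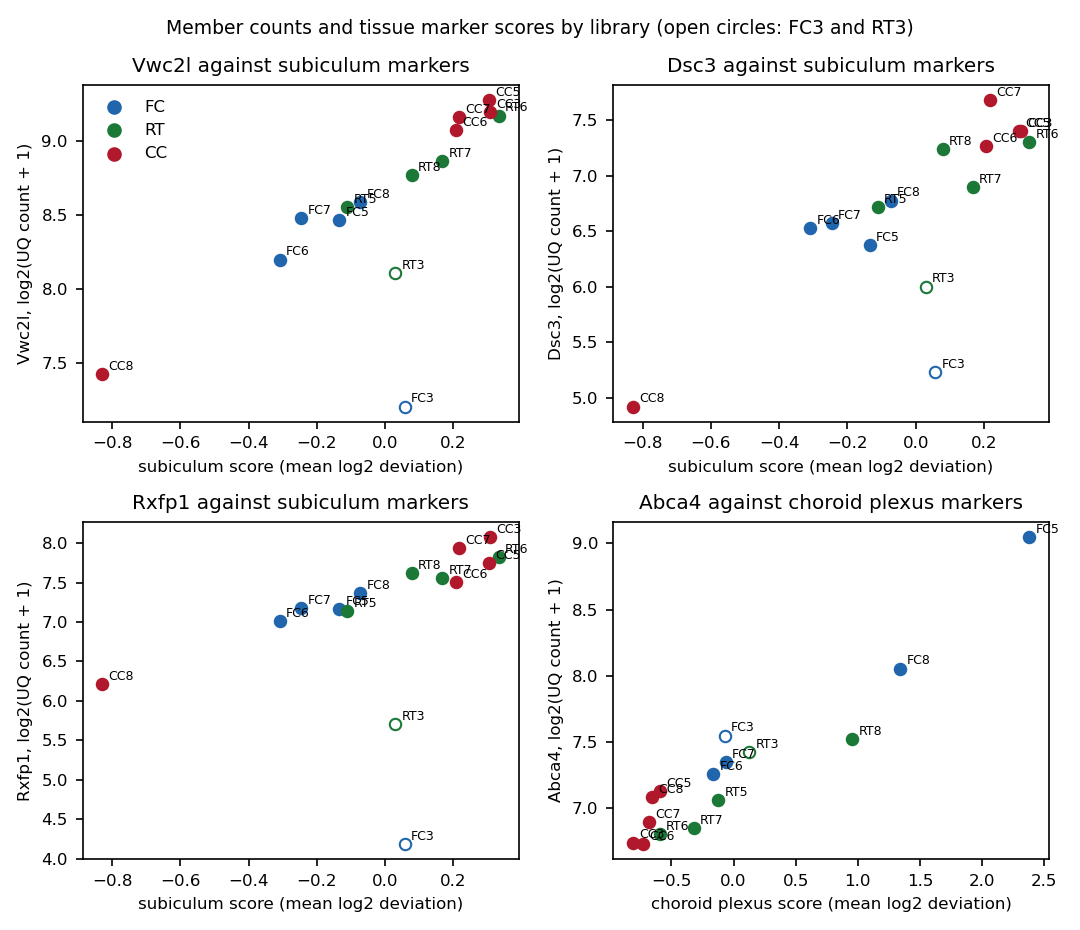
Log2(UQ count + 1) of Vwc2l, Dsc3 and Rxfp1 against the subiculum marker score, and of Abca4 against the choroid plexus marker score (mean log2 deviation of the markers from their mean over 15 libraries). Each point is 1 library, coloured by group, and open circles are FC3 and RT3. Vwc2l, Dsc3 and Rxfp1 rise with the subiculum score from CC8 to the other controls, with FC3 and RT3 below that line, and Abca4 rises with the choroid plexus score up to FC5.

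Abca4, the retinoid flippase, was the 1 gene of the 6 that was higher after training. It had 186, 528, 152, 162 and 265 UQ counts in FC3, FC5, FC6, FC7 and FC8, against 106, 139, 105, 118 and 135 in the CC libraries of the same numbers. In RT it had 171, 133, 111, 114 and 183. All 5 FC values exceeded the highest CC value, while 3 of the 5 RT libraries lay within the CC range. The fitted log2 fold change was 1.01 (SE 0.153) for FC against CC, 0.18 (SE 0.157) for RT against CC and 0.82 (SE 0.149) for FC against RT. Library FC5 carried much of this, and without it the values were 0.61, 0.14 and 0.47. RUVs-adjusted counts averaged 241 ± 55.9 in FC, 136 ± 17.7 in RT and 121 ± 14.3 in CC (SD, n = 5 each).

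Choroid plexus markers moved with Abca4. Of 20 markers of this secretory epithelium of the ventricles, 19 were tested and all 20 were counted in every group. Among the 19, 17 rose and none fell in FC against CC, 2 rose and none fell in RT against CC, and 7 rose and none fell in FC against RT (edgeR likelihood ratio test with RUVs factors, FDR at most 0.01). The marker calls were not recounted under other settings. For FC against RT no gene of any kind was called with UQ factors alone, with 1 RUVs factor or by the quasi-likelihood test. Without FC5 only 4 of all tested genes were called higher there. Their median log2 fold change was 1.67, 0.74 and 0.93 in these comparisons, against -0.0138, -0.00121 and -0.0143 over all tested genes. Their summed UQ count was 15058 to 86532 in FC (highest in FC5), 12012 to 31075 in RT (highest in RT8) and 11332 to 12601 in CC. The marker score and Abca4 had r = 0.958 (rho 0.885) over 13 libraries, 0.820 over 11 without FC5 and FC8, and 0.949 over all 15. Abca4 was not in the list. The part of choroid plexus RNA in the Abca4 values was not tested.

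Tbx3 and Lcmt2 were lower than in controls after both sessions. Tbx3, the T-box repressor, had 160, 125, 139, 129 and 111 UQ counts in FC3, FC5, FC6, FC7 and FC8, against 217, 156, 196, 177 and 143 in the CC libraries of the same numbers. In RT it had 99.9, 136, 155, 143 and 143. Of the FC libraries 4 lay below every CC library, with FC3 as the exception, and so did 3 of the RT libraries, counting RT7 just below the lowest control. The fitted log2 fold change was -0.43 (SE 0.100) for FC against CC, -0.36 (SE 0.0977) for RT against CC and -0.08 (SE 0.103) for FC against RT. RUVs-adjusted counts were 110 to 144 in FC, 123 to 150 in RT and 151 to 208 in CC.

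Lcmt2, the tRNA-modifying methyltransferase, had the smallest fitted difference of the 6 between FC and CC, and one of like size between RT and CC. It had 432, 371, 388, 377 and 396 UQ counts in FC3, FC5, FC6, FC7 and FC8, against 485, 531, 467, 446 and 470 in the CC libraries of the same numbers. In RT it had 469, 349, 357, 390 and 390. All FC libraries and all RT libraries except RT3 lay below the lowest control. The fitted log2 fold change was -0.34 (SE 0.0623) for FC against CC, -0.35 (SE 0.0622) for RT against CC and 0.01 (SE 0.0639) for FC against RT. RUVs-adjusted counts averaged 389 ± 18.1 in FC, 385 ± 15.2 in RT and 489 ± 29.3 in CC (SD, n = 5 each). With UQ factors alone the value was -0.29 for both comparisons with CC. On the RUVs scale Tbx3 and Lcmt2 were lower in every RT library than in any CC library, as were 2.74% of all tested genes.

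**Figure D4:**
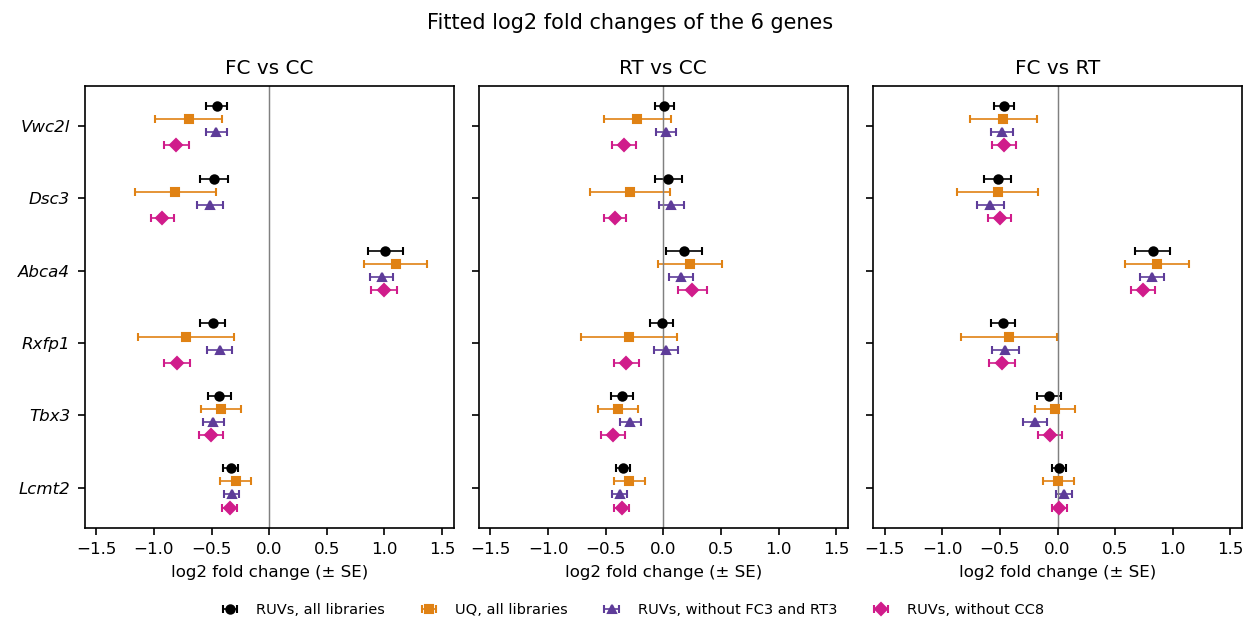
Fitted log2 fold changes (± SE) of the 6 genes for FC against CC, RT against CC and FC against RT, under 4 settings given in the legend. Negative values mean lower in the group named first. Leaving out CC8 moves Vwc2l, Dsc3 and Rxfp1 away from 0 in both comparisons with CC and leaves FC against RT near -0.5, while Tbx3 moves from -0.43 to -0.50 and Lcmt2 stays at -0.34 in FC against CC.

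Same-numbered libraries of FC and RT were compared as pairs by their shared number. Their deviations from group means correlated positively across all genes. So did those of differently numbered libraries other than FC3 and RT3 (r = 0.0415 to 0.512), so these correlations cannot show that the numbers mark pairs. FC7 was closer to RT6 (r = 0.512) than to RT7 (r = 0.254). For Vwc2l and Dsc3 the FC library had fewer UQ counts than the RT library in 5 of 5 pairs, for Rxfp1 in 4 of 5 and for Abca4 in 0 of 5. The mean log2 ratio of the pairs was -0.50 ± 0.41 for Vwc2l, -0.54 ± 0.22 for Dsc3, -0.59 ± 0.60 for Rxfp1 and 0.72 ± 0.73 for Abca4 (SD, n = 5 pairs). Tbx3 had fewer counts in FC in 4 of 5 pairs, with a mean of -0.02 ± 0.40, and Lcmt2 in 2 of 5 pairs, with 0.01 ± 0.10. The genes were chosen by values that include these, and the share of all genes alike in 5 of 5 pairs was not counted. On the RUVs scale Vwc2l and Dsc3 were lower in every FC library than in any RT library, which held for 4.97% of all tested genes, while Rxfp1 was not separated because RT5 lay within the FC range. The counts of members past the threshold restate how they were chosen. They were 6 of 6 for FC against CC (5 lower, 1 higher), 1 of 6 for RT against CC (Lcmt2, lower) and 4 of 6 for FC against RT (Vwc2l, Dsc3 and Rxfp1 lower, Abca4 higher). Of all tested genes 2.24%, 1.01% and 0.122% were called in these comparisons. With the library number as a block beside the RUVs factors, the member counts for RT against CC and FC against RT were 2 (Tbx3 and Lcmt2) and 4. Without CC8 the RT against CC count was 3 (Dsc3, Tbx3 and Lcmt2). With UQ factors alone (with or without the block) and by the quasi-likelihood test that count was 0. For FC against RT the count was 0 with UQ factors alone (with or without the block), with 1 or 3 RUVs factors and by the quasi-likelihood test, 1 by DESeq2 (Abca4) and 2 with TMM factors (Vwc2l and Abca4). Over all genes the block moved the number called for FC against RT to 82, against 22 without it.

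For each gene, other members of its pathway or of related families were examined, from lists that leave out the 6 genes themselves. In all 3 comparisons none of the 10 tested genes of the relaxin list passed the threshold in the edgeR likelihood ratio test. The same held for the 9 tested desmosome genes, the 11 tested ABCA transporters and the 8 tested genes of wybutosine synthesis and leucine carboxyl methylation. Beside relaxin peptides and receptors, the relaxin list held the receptors Lgr4, Lgr5, Lgr6, Lhcgr and Tshr. The last list held Lcmt1, Ppme1, Ppp2ca and Ppp2cb as its leucine carboxyl methylation part. At an unadjusted p under 0.05 each of these lists had 0 to 2 genes in a comparison, and neither DESeq2 nor the quasi-likelihood test called any. Of all 18008 tested genes, 2976 had such a p in FC against CC, 1989 in RT against CC and 1934 in FC against RT. The median log2 fold changes for FC against CC were -0.11 for the relaxin list, 0.02 for desmosome genes, 0.01 for ABCA transporters and -0.04 for the methylation genes, against -0.01 over all tested genes. Over all tested genes 1.32% were called higher and 0.922% lower in FC than in CC, and fewer in the other comparisons. Lists of this size would thus seldom hold a called gene.

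Retinoids are the substrates of Abca4. Of 23 tested genes that handle them, 3 rose and none fell in FC against CC, with a median log2 fold change of 0.06. With UQ factors alone, with 1 or 3 RUVs factors and by the quasi-likelihood test 1 was called, and by DESeq2 2 were. Ttr, which encodes the plasma and cerebrospinal fluid carrier of thyroxine that also takes part in retinol transport, had 2332 to 46548 UQ counts in FC, 1072 to 12255 in RT and 547 to 1153 in CC. It rose in FC against CC (log2 fold change 3.49, edgeR FDR 4.51e-17), in RT against CC (1.83, FDR 8.49e-05) and in FC against RT (1.66, FDR 0.00204). Rdh5, a retinol dehydrogenase of the visual cycle, had 116 to 289 in FC, 115 to 187 in RT and 101 to 129 in CC and rose in FC against CC (0.60, edgeR FDR 1.59e-06). The call of Rdh5 ended without FC5 (0.37, FDR 0.0352). For Ttr, the RT against CC call ended without RT5 or RT8 (FDR 0.0128 to 0.0207) and the FC against RT call ended without FC5, FC7, FC8, RT6 or RT7 (FDR 0.0105 to 0.465). Ttr was also in the choroid plexus list. Apart from Ttr, no retinoid gene was called in RT against CC or in FC against RT.

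Of 19 tested secreted BMP antagonists, the family Vwc2l belongs to, 1 rose in FC against CC and none passed in the other comparisons (edgeR). At an unadjusted p under 0.05 there were 1 in RT against CC and 3 in FC against RT, against 1989 and 1934 of all 18008 tested genes. Neither the quasi-likelihood test nor DESeq2 called any of the 19. The gene that rose was Sostdc1, a BMP and Wnt antagonist (log2 fold change 0.81, edgeR FDR 0.000477). It had 131 to 664 UQ counts in FC, 150 to 267 in RT and 147 to 165 in CC. Its call ended without FC5 (0.35, FDR 0.0563), and it was also in the choroid plexus list. Of 26 tested BMP ligands, receptors and targets, none passed for FC against CC or FC against RT, also by the quasi-likelihood test and DESeq2. At an unadjusted p under 0.05 there were 7 and 3, against 2976 and 1934 of all 18008 tested genes. In RT against CC 2 of the 26 fell. Id1, a transcriptional target of BMP signalling, had 426 to 848 in RT and 556 to 661 in CC (-0.32, edgeR FDR 2.00e-05), and the highest RT value was that of RT3. RT3 lay above the CC range of Id1, and the other RT libraries (426 to 510) lay below it. Without FC3 and RT3 the Id1 value was -0.34 (edgeR FDR 2.07e-06), with UQ factors alone it was -0.15 (FDR 1.000), and the quasi-likelihood test ended the call (FDR 0.0109). Bmp3, a BMP ligand, had 53.1 to 92.3 in RT and 60.8 to 146 in CC (-0.45, edgeR FDR 0.00715), and its call ended without any 1 of CC3, CC5, CC7, FC7, RT6 or RT8 (FDR 0.0122 to 0.0635).

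Of 9 tested T-box factors other than Tbx3, 1 rose in RT against CC and none passed in the comparisons that involve FC (edgeR, with 3 genes for FC against CC and 2 for FC against RT at an unadjusted p under 0.05, and none by the quasi-likelihood test or DESeq2). The gene was Tbx6, a factor of the paraxial mesoderm in embryos. It had 94.5 to 113 UQ counts in RT, 78.1 to 115 in FC and 52.7 to 83.3 in CC, with no overlap between RT and CC (log2 fold change 0.63, edgeR FDR 4.35e-06). Its RT against CC difference was opposite in sign to that of Tbx3. Of the list genes named here, the quasi-likelihood test kept the calls of Tbx6 in RT against CC and of Ttr in FC against CC, and UQ factors alone kept that of Ttr in FC against CC. DESeq2 called no T-box factor in RT against CC, so the Tbx6 call ended there.

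The genes whose library profile was most like each of the 6 were read from 14985 other genes with a mean UQ count of at least 50, by Pearson's r over the 13 libraries without FC3 and RT3. For Vwc2l they were Cobl (r = 0.978, and 0.983 over all 15 libraries), Rims3 (0.967 and 0.845) and Vill (0.967 and 0.578). For Dsc3 they were Chrna4, a nicotinic receptor subunit (0.941 and 0.839), Klf6 (0.937 and 0.843) and Slc17a6, a vesicular glutamate transporter (0.932 and 0.850). Slc17a6 was also among the nearest to Rxfp1 (0.951 and 0.584), beside Cit (0.953 and 0.952) and Cntn4 (0.942 and 0.981). For Abca4 they were Enpp2 (0.972 and 0.881), Rdh5 (0.967 and 0.822) and Sostdc1 (0.964 and 0.896), of which Enpp2 and Sostdc1 were in the choroid plexus list. Tbx3 had weaker neighbours, namely Nup35 (0.862 and 0.140), Tbc1d19 (0.860 and 0.179) and Zfp273 (0.828 and 0.210), and none of these kept its likeness with FC3 and RT3 included. For Lcmt2 they were Sox18 (0.883 and 0.874), 2900052L18Rik (0.873 and 0.698) and Zfp688 (0.871 and 0.374). These are the highest of many values over few libraries that share groups and depth, and they are given as a description.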

How the data were processed

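Paired-end RNA-seq reads of 100 bp (TruSeq kit with poly(A) selection, 3 libraries per lane, 1 of each group) were aligned to mm9 with GSNAP and counted per Ensembl gene with HTSeq (0.6.1) by the authors, who deposited raw counts, with no normalization, for 37310 genes in 15 libraries (35731428 to 62555543 assigned reads, intervals not given since the spread between libraries was used). The 6 genes and all gene lists were chosen with earlier results of these data known. The low-count filter asked for over 10 reads in over 5 libraries (18008 genes). UQ factors and 5 RUVs factors, rebuilt after the study's methods with its negative control genes, entered an edgeR (4.0.16, R 4.3.3) generalized linear model over all 15 libraries with a likelihood ratio test and Benjamini-Hochberg FDR of 0.01. The SE is the absolute log2 fold change divided by the root of the test statistic. The fit was also run on simulated data that carried 1 unwanted factor, placed in FC3 and RT3 only. Libraries CC8 and FC5 stand apart here too, so that run cannot judge the fit of these data. Alternatives were UQ alone, 1 or 3 factors, all genes as controls, TMM, the quasi-likelihood test, DESeq2 (1.42.0), other filters, omitted libraries and a block on the library number.

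The library numbers, which the labels' column names share between groups, were taken to pair FC with RT. Correlations of deviations from group means were 0.254 to 0.871 for the same numbers, and -0.685 to 0.512 for different ones, so the ranges overlapped. All negative values involved FC3 or RT3. Without these libraries the ranges were 0.254 to 0.582 and 0.0415 to 0.512, so the correlations cannot show that the numbers mark pairs. The numbers did not pair FC with CC (-0.313 to 0.239) or RT with CC (-0.326 to 0.0928). Named genes were the 6 genes, up to 3 called genes of each pathway list by smallest p, the 3 most correlated genes for each of the 6, and Fos and Arc. A single one of the called genes that this rule names is counted in its list but not reported here. Each library came from 1 mouse per the study's methods. Promoter windows come from RefSeq (GRCm38.p6), and coordinates of genes from the mm9 annotation.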

Additional observations from a re-analysis of the deposited data

Results flagged for a closer look

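Library CC8 lay far below the other controls in Vwc2l (171 UQ counts, against 536 to 618 in the other 4) and in the summed subiculum markers (3120, against 4957 to 5604). Library FC3 lay far below the other FC libraries in Rxfp1 (17.2, against 128 to 164). Libraries FC3 and RT3 lay far above the others of their group in Id1 (1192, against 416 to 592 in FC, and 848, against 426 to 510 in RT). These 5 were found among 48 groups of 5 libraries examined, where chance alone gives about 5% of groups. Ttr differed between the sessions, with a log2 fold change of 1.66 for FC against RT (edgeR FDR 0.00204). The causes were not tested.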

How the results depend on the processing

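The fold changes of the 6 genes kept their direction in all 32 alternatives for FC against CC, and for FC against RT in all but Lcmt2 (27 of 32, near 0), whereas for RT against CC the values of Vwc2l, Dsc3 and Rxfp1, near 0 in the reported fit, kept their sign in 18, 21 and 20 of 32. Counts of called genes moved widely. For FC against CC, with 403 reported, they were 34 with UQ alone, 122 and 176 with 1 and 3 RUVs factors, 98 by the quasi-likelihood test, 164 by DESeq2, 45 with UQ and a replicate block, and 249 (without FC5) to 653 (without CC8) when 1 library was left out. For RT against CC, with 182 reported, they were 19 with UQ alone, 85 with 1 factor, 66 by the quasi-likelihood test, 85 by DESeq2, 27 with UQ and the block, and 145 to 276 (without CC8) with 1 library left out. For FC against RT, with 22 reported, they were 0 with UQ alone, with 1 factor, by the quasi-likelihood test and with UQ and the block, 1 with 3 factors, 39 with all genes as controls, 4 by DESeq2, 62 without FC3 and RT3, 82 with RUVs and the block, and 11 (without FC5) to 92 (without RT8) with 1 library left out. At an unadjusted p under 0.05, UQ alone gave 122 genes for FC against RT.

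Alternatives chosen after seeing the data gave, for FC against CC, RT against CC and FC against RT, 110, 66 and 0 called genes with UQ alone without FC3 and RT3, 114, 65 and 0 with the block added, 34, 18 and 0 with UQ alone without CC8, 192, 100 and 0 with UQ alone without CC8, FC3 and RT3, and 613, 322 and 61 with RUVs without these 3 libraries. Of the 6 genes, those past the threshold for FC against CC were 0 with UQ alone, 3 with UQ alone without FC3 and RT3 (Abca4, Tbx3 and Lcmt2), 6 with UQ alone without CC8, FC3 and RT3, and 1 (Abca4) by the quasi-likelihood test. For RT against CC, with 1 reported (Lcmt2), Tbx3 joined without CC5, CC7, FC8 or RT6, and Dsc3 and Tbx3 joined without CC8. The call of Lcmt2 there ended by the quasi-likelihood test and with UQ alone, also with the block or without CC8. With 1 library left out, Dsc3 dropped out for FC against CC without CC6, CC7, FC5, FC6 or FC7, and Tbx3 without CC3 or FC8. For FC against RT, Dsc3 dropped out without FC5, FC6, RT7 or RT8, Abca4 without FC5, and Rxfp1 without FC3, FC5, FC6, RT6, RT7 or RT8. Called genes per pathway list ranged over the alternatives from 1 to 5 for retinoid handling, 0 to 4 for secreted BMP antagonists and 0 to 3 for BMP ligands, receptors and targets in FC against CC, and from 0 to 2 in all other lists and comparisons. Over the 32 alternatives the FDR ran from 6.93e-26 to 0.000756 for Ttr in FC against CC, and it reached 0.230 for Rdh5 and 0.893 for Sostdc1 there, 0.717 for Ttr, 1.000 for Id1 and Bmp3 and 0.236 for Tbx6 in RT against CC, and 1 for Ttr in FC against RT. The causes were not tested. Dsc3, with 26 to 234 reads a library, had the fewest reads of the 6 in total (Rxfp1 had the fewest in a single library, 17 in FC3).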
